A study of Mus musculus with 18 samples.

Results

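Differential m6A peaks were examined in 54 genes of the extracellular matrix, in the uterus of pregnant mice given lipopolysaccharide (LPS), a bacterial endotoxin, with or without melatonin. The genes were taken by name: 20 collagen chains and 34 genes for laminin chains, elastic fibre proteins and fibronectin, basement membrane linkers, matricellular proteins and proteoglycans, and matrix proteases with their inhibitors and crosslinking enzymes. A peak was counted for a gene when the deposited annotation named the gene as the one the peak lies in, or when the gene was the nearest by transcription start and the centre of the peak lay within its limits. By this rule 255 of the 40929 peaks used belonged to 43 of the 54 genes, and the other 11 genes (Col16a1, Lama1, Lama5, Lamb2, Lamb3, Fbn2, Eln, Thbs2, Nid2, Mmp11 and Loxl2) had none.

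All mice were pregnant ICR females of 8 weeks, and the uterus was taken on day 5 of pregnancy. The Veh group received vehicle daily on days 1 to 4, the LPS group received the vehicle and LPS at 0.5 mg/kg on days 3 and 4, and the Mel+LPS group received melatonin at 10 mg/kg daily on days 1 to 4 and the same LPS. All injections were into the abdomen. LPS was dissolved in 0.9% saline and melatonin in the same saline with ethanol. Each group had 3 replicates, each with an m6A immunoprecipitation (IP) library and an input library, 18 libraries in all. The deposited values are 4 tables of differential peaks: m6A-up and m6A-down in LPS vs Veh, and m6A-up and m6A-down in Mel+LPS vs LPS. Each peak carries 1 score, a log10 likelihood ratio that one treatment has the higher m6A signal, and every score is above 1. The m6A-down table of LPS vs Veh was used on chromosomes 1 to 9, where 27 of the 54 genes lie. There was no value per replicate, no sequencing depth and no expression level in the tables, so no test over mice could be made, the spread between mice is unknown, and the labelled tissue was not checked against marker genes. A change in methylation, in the amount of a transcript, and in the number of the cells that make it cannot be told apart here. Intervals below are 95% Wilson intervals, which describe counting error over peaks or genes and not over mice.

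The extracellular matrix is the protein meshwork that cells secrete and adhere to. Fibrillar collagens give the uterine stroma its tensile strength, while type IV collagen, laminins, nidogens and perlecan build the basement membranes under the epithelium and around vessels and decidual cells. This matrix is remodelled during decidualisation, when stromal cells around the implanting embryo differentiate. N6-methyladenosine (m6A) is an internal methyl mark of mRNA that a nuclear methyltransferase complex places mainly within the DRACH motif, in which D stands for A, G or T, R for A or G, and H for A, C or T. In most mRNAs it is found chiefly in long internal exons and near the stop codon, and it affects splicing, stability and translation.

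The sequences below are shown because they hold candidate methylation motifs of exonic peaks. They were drawn from the 5 highest scores of each table and from the strongest exon peak of the member with most peaks in each role group, and only peaks whose exonic part held a DRACH motif have one. Each is the stretch around the DRACH nearest to the peak centre, clipped at the exon's edge, in the sense of the mRNA from 5′ to 3′, with the motif in capitals. The letters are those of the GENCODE transcript on GRCm38, the C57BL/6J reference, and not of the ICR mice that were studied. A match is a description and not a mapped m6A site. None is shown for the highest-scoring peaks that touch an exon, Col12a1 at exon 26 (score 13.6) and Col1a1 at exon 40 (score 11.6). Their exonic parts held no DRACH.
Col1a1, chr11:94947759-94947779, plus strand: cctggtgctgatGGACCtgct
Col3a1, chr1:45321618-45321646, plus strand: tgaggagccactAGACTgccccaacccag
Col4a1, chr8:11226951-11226979, minus strand: ccaggactccctGGACCcaaaggctctcc
Col5a3, chr9:20807605-20807623, minus strand: tggtgcccctgaGAACCag
Col6a3, chr1:90827982-90828010, minus strand: gaagtagcaagcGAACCactcagtatgca
Col6a3, chr1:90816362-90816390, minus strand: ggctcagtatgcAGACActgtcaagcctg
Lama2, chr10:27056538-27056566, minus strand: aaatgacaccatGGACAagttatcagcca
Fn1, chr1:71627170-71627198, minus strand: tcatccaacaagAGACCactggcacccca
Hspg2, chr4:137551176-137551204, plus strand: gtggaagattcgGGACCaagagctggagg
Postn, chr3:54367634-54367658, plus strand: cgaggcttgggaGAACCtggattct
Mmp2, chr8:92840514-92840531, plus strand: cttcttcttcaaGGACCg

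Peaks of the matrix genes were almost all m6A-up in Mel+LPS vs LPS. In that comparison 36 of the 54 genes had an m6A-up peak (66.7%, interval 53.4 to 77.8), against 25.6% of RefSeq protein-coding genes. They made up 83.7% of the 43 matrix genes with a peak in any table, against 55.6% of all genes that had a peak anywhere. An m6A-down peak was present in 12 of the 54 (22.2%, 13.2 to 34.9), against 15.3% of protein-coding genes. These were 27.9% of the matrix genes with a peak in any table, against 37.6%. With the peaks on exons of matrix genes that are given to other genes, described below, 41 genes had an m6A-up and 18 an m6A-down peak. No share over all genes by the same search is given here, so these counts cannot be set against the shares above. The 36 genes held 167 m6A-up peaks and the 12 genes held 14 m6A-down peaks, so that 92.3% of the 181 peaks were up (87.4 to 95.3), while over all genes 64.8% of 16134 peaks were up. With scores of at least 3, the split was 52 up and 6 down in the matrix genes (89.7% up), and 54.4% up over all genes. Of the 41 matrix genes with a peak in this comparison by the rule, 29 had up peaks alone, 7 had both and 5 had down peaks alone. The last were Col7a1, Thbs1, Ltbp1, Timp3 and Adamts5, although a peak in the 3′UTR of Adamts5 that is given to another gene was m6A-up (score 1.48).

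In LPS vs Veh the numbers were smaller and the direction was mixed. Of the 54 genes, 21 were m6A-up (38.9%, 27.0 to 52.2), against 20.1% of protein-coding genes. They made up 48.8% of the 43 matrix genes with a peak in any table, against 46.7% of all genes that had a peak anywhere. An m6A-down peak was present in 14 of the 27 genes on chromosomes 1 to 9 (51.9%, 34.0 to 69.3), against 22.0% of protein-coding genes there. These were 63.6% of the 22 with a peak in any table, against 48.0%. On those chromosomes the matrix genes held 24 up and 38 down peaks (38.7% up, 27.6 to 51.2), and 48.6% of the peaks of all genes were up. With scores of at least 3 the matrix genes held 7 up and 8 down (46.7% up, 24.8 to 69.9), and 50.5% were up over all genes. On the same chromosomes 92.9% of the matrix genes' peaks in Mel+LPS vs LPS were up. In LPS vs Veh the collagen genes held 19 up and 17 down peaks (52.8% up, 37.0 to 68.0), and the other members held 5 up and 21 down (19.2% up, 8.51 to 37.9). Both sets were mostly up in Mel+LPS vs LPS, with 99 up and 5 down peaks in collagens and 68 up and 9 down in the others. The comparisons share the LPS libraries, so their directions are not independent of each other, and their values are given side by side for each gene and not read as agreement.

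**Figure D1:**
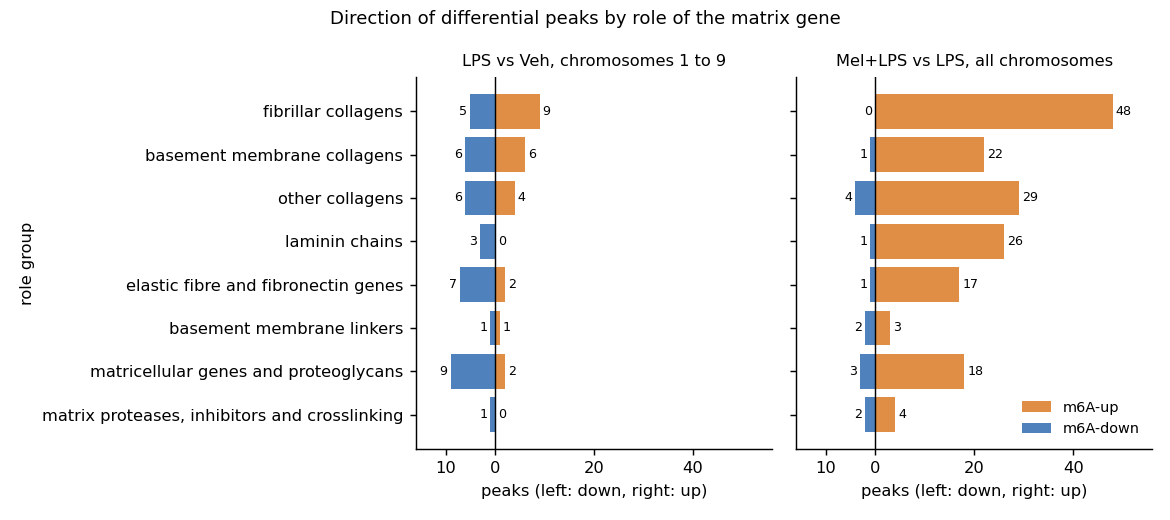
Number of differential m6A peaks (horizontal axis) in each role group of matrix genes, with m6A-down peaks to the left of 0 and m6A-up peaks to the right. The left panel covers LPS vs Veh on chromosomes 1 to 9 and the right panel Mel+LPS vs LPS on all chromosomes. In the right panel the up bars exceed the down bars in all 8 groups, from 48 against 0 in fibrillar collagens to 3 against 2 in basement membrane linkers.

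Many matrix genes carried several peaks. In the m6A-up table of Mel+LPS vs LPS, 28 of the 54 had at least 2 peaks and 13 had at least 5, which 9.85% and 0.676% of protein-coding genes had. These 13 were Col1a1, Col1a2, Col3a1, Col4a1, Col4a2, Col6a3, Col14a1, Lama2, Lama4, Lamc1, Fn1, Postn and Vcan. The 54 genes are long, with a median transcript of 5988 bases and 37.5 exons, beside 2539 bases and 7 exons in the other protein-coding genes. The part of length and of expression level in the number of peaks was not tested. The median score was 2.17 in that table (range 1.01 to 17.1), beside 2.18 for all peaks in a gene. In the other tables the members' medians of 1.90 (m6A-up LPS vs Veh), 1.76 (m6A-down LPS vs Veh) and 2.13 (m6A-down Mel+LPS vs LPS) lay below those of all peaks in a gene, 2.76, 2.57 and 3.09. The order depended on the assignment rule: with every peak whose nearest gene is a member the median was 3.49 in the m6A-up table of LPS vs Veh, and with that rule or with the annotation alone it was 3.85 in the m6A-down table of Mel+LPS vs LPS, both above the median of all peaks in a gene.

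**Figure D2:**
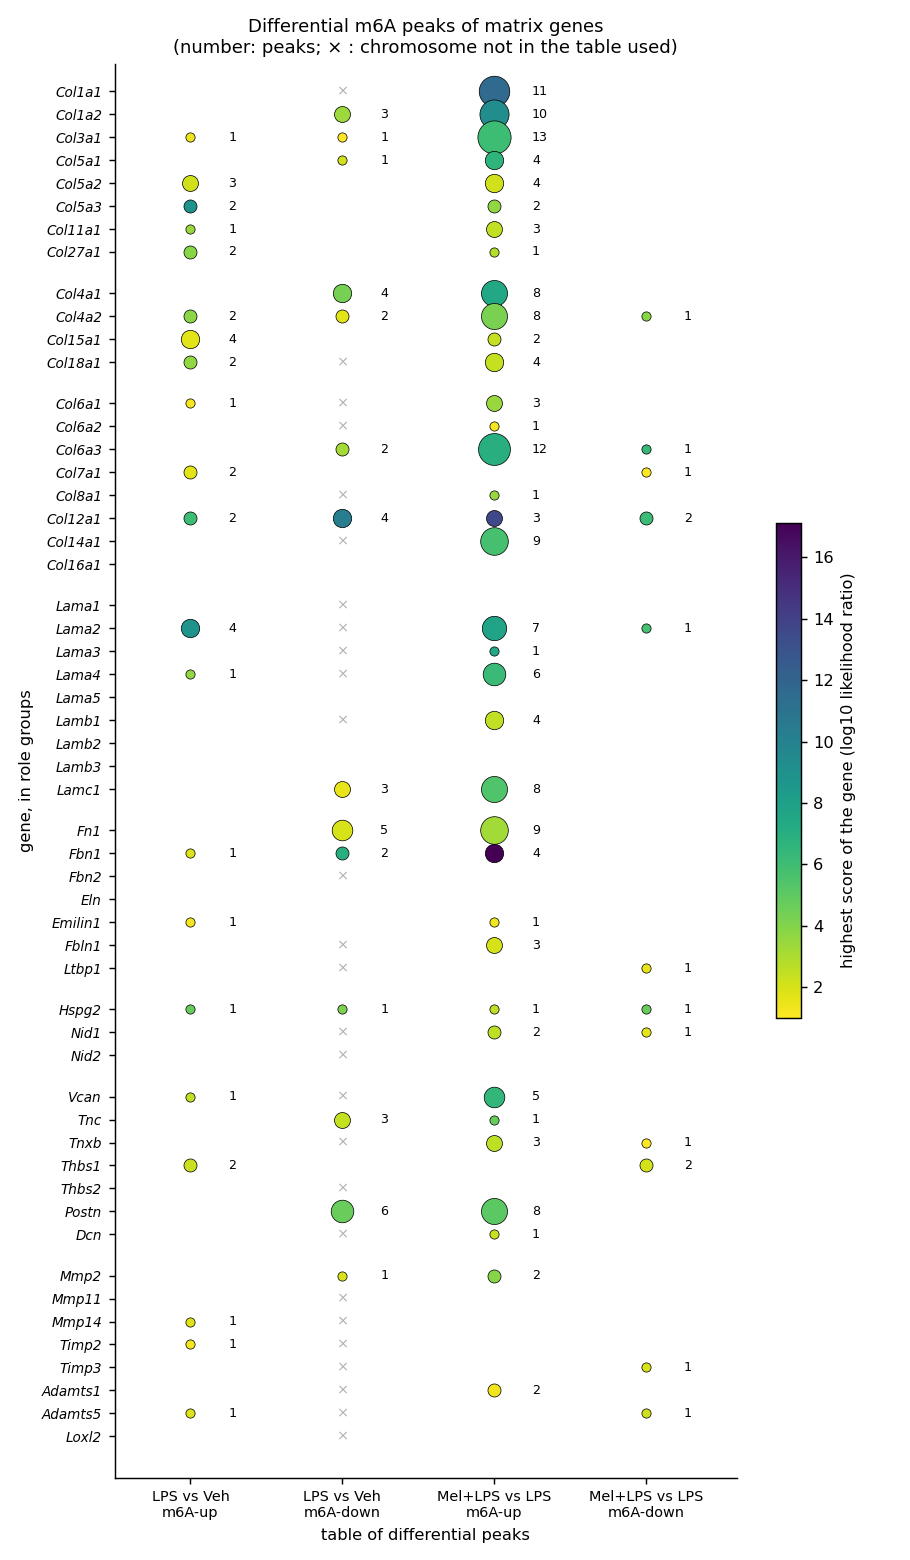
Peaks of each of the 54 matrix genes (rows, in role groups) in the 4 tables (columns). The area of a point grows with the number of peaks, which is printed beside it, and its colour gives the highest score of the gene; a cross marks a gene outside chromosomes 1 to 9 in the m6A-down table of LPS vs Veh. The m6A-up column of Mel+LPS vs LPS holds the largest points, up to 13 peaks in Col3a1.

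**Figure D3:**
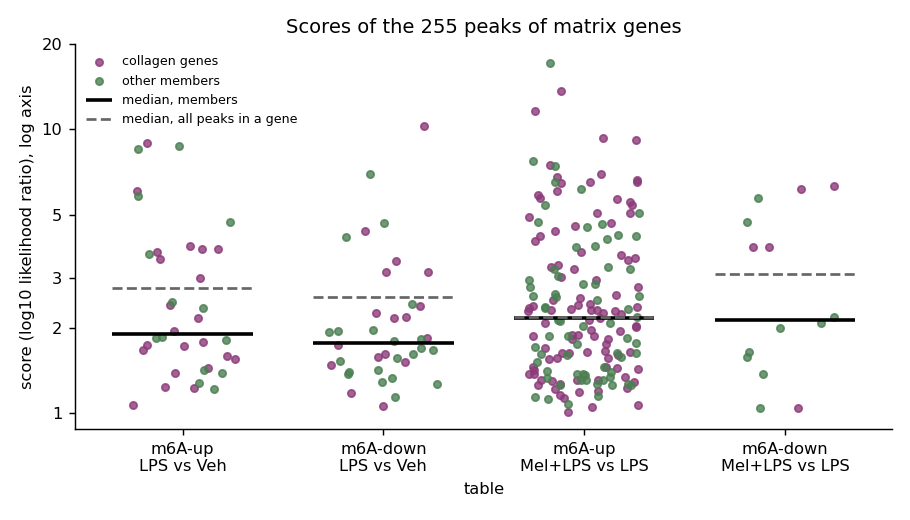
Score (log10 likelihood ratio, log axis) of each of the 255 peaks by table, with collagen genes and other members in different colours, the members' median as a solid line and the median of all peaks in a gene as a dashed line. The solid line lies below the dashed line in 3 tables and nearly on it in the m6A-up table of Mel+LPS vs LPS.

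The fibrillar collagens, which assemble into the banded fibres of the stroma, had peaks in all 8 genes and 62 peaks in all. In Mel+LPS vs LPS they held 48 m6A-up peaks spread over all 8 genes and, by the rule, no m6A-down peak. An m6A-down peak in the 3′UTR of Col27a1 (chr4:63334112-63334221, score 1.42) is given to Orm1. Col1a1 and Col1a2 encode the chains of type I collagen, the main fibre-forming collagen. Col1a1 had 11 peaks, on 11 different exons of its 51, and all were m6A-up in Mel+LPS vs LPS; it lies on chromosome 11, where m6A-down peaks of LPS vs Veh were not analysed. Its strongest peaks were at exon 40 (chr11:94947984-94948112, score 11.6) and exon 39 (chr11:94947753-94947862, score 9.16). The GGACC printed above for Col1a1 lies in the latter peak. The remaining 9 scores of Col1a1 ran from 1.27 to 5.53, so its strongest peaks were next to each other and stood above the rest.

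Col1a2 had 10 m6A-up peaks in Mel+LPS vs LPS, with the highest in intron 31 (chr6:4527163-4527298, score 9.29), and 3 m6A-down peaks in LPS vs Veh. Each of its LPS vs Veh peaks overlapped a Mel+LPS vs LPS peak, at the highest with a score of 3.44 for the m6A-down peak at chr6:4536717-4536826 and 5.68 for the m6A-up peak at chr6:4536697-4536834. Col3a1 encodes type III collagen, which mixes with type I in soft tissues. It had 15 peaks, the most of any fibrillar collagen, of which 13 were m6A-up in Mel+LPS vs LPS, with a highest score of 6.05 in intron 4 and 5.88 at exon 2. In LPS vs Veh it had 1 peak in each direction, up at exon 11 (score 1.39) and down at exon 47 (score 1.06), and at exon 47 a peak with score 2.95 was m6A-up in Mel+LPS vs LPS. Col3a1 thus had its many peaks in a single direction of a single comparison, as Col1a1 had.

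Among the minor fibrillar collagens, Col5a2, Col5a3, Col11a1 and Col27a1 had m6A-up peaks and, by the rule, no m6A-down peak in LPS vs Veh. Col5a3, a chain of the type V collagen that regulates fibre width, had the highest m6A-up score among the members in this comparison, 8.97 at exon 6 (chr9:20807497-20807695). At a site overlapping it by 109 bases the gene was also m6A-up in Mel+LPS vs LPS, with a score of 1.87. A peak in its 3′UTR that is given to another gene was m6A-down in LPS vs Veh (chr9:20769977-20770143, score 2.18), so Col5a3 had both directions in that comparison once this peak is counted. Col5a2 had 3 m6A-up peaks in LPS vs Veh with scores of 1.55 to 2.16. Col27a1 and Col11a1 reached 3.89 and 3.49. Col5a1 had 1 m6A-down peak in LPS vs Veh (score 2.18) and 4 m6A-up peaks in Mel+LPS vs LPS, with a maximum of 6.63.

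The basement membrane collagens had 37 peaks in all 4 genes. Col4a1 and Col4a2 encode the chains of the main type IV collagen network and start head to head on chromosome 8. Col4a1 had 4 m6A-down peaks in LPS vs Veh, 8 m6A-up peaks in Mel+LPS vs LPS and none in the opposite tables. Its strongest site was exon 25, with a score of 4.39 for the m6A-down peak of LPS vs Veh (chr8:11226820-11227002) and 7.47 for the m6A-up peak of Mel+LPS vs LPS (chr8:11226821-11227012). Exon 25 is the source of the GGACC printed for Col4a1. Col4a2 also had 8 m6A-up peaks in Mel+LPS vs LPS, up to 4.22 at exon 5, but had peaks in the opposite direction as well. In intron 4 it was m6A-up in LPS vs Veh (chr8:11375403-11375565, score 3.78) and m6A-down in Mel+LPS vs LPS (chr8:11375446-11375555, score 3.85). At exon 46 it was m6A-down in LPS vs Veh (score 1.48) and m6A-up in Mel+LPS vs LPS (score 1.95), so intron 4 and exon 46 were listed in opposite directions. A further m6A-up peak of LPS vs Veh in Col4a2, in intron 22 (score 1.95), was centred 74 bases past an exon. Col15a1 and Col18a1, the collagens of the basement membrane zone that carry glycosaminoglycan chains, had 4 and 2 m6A-up peaks in LPS vs Veh, with maxima of 1.73 and 3.69. Col15a1 was m6A-up at exon 9 in both comparisons, with scores of 1.223 and 1.133.

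Of the other collagens, 7 of 8 had peaks, 44 in all. Col12a1, a fibril-associated collagen that links fibres to their surroundings, had peaks in all 4 tables and the highest scores of the group. In intron 26, next to the exon, it had a score of 10.3 as m6A-down in LPS vs Veh (chr9:79662311-79662436), and at an overlapping peak that touches exon 26 a score of 13.6 as m6A-up in Mel+LPS vs LPS (chr9:79662321-79662473). In intron 15 the directions were the opposite, with 6.06 as m6A-up in LPS vs Veh and 6.15 as m6A-down in Mel+LPS vs LPS. The same order held in intron 25, with 3.78 and 3.85. Col12a1 was thus listed in both directions, at different sites, within each comparison.

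Col6a3, a chain of the beaded-filament type VI collagen, had 12 m6A-up peaks in Mel+LPS vs LPS with a median score of 3.95, well above the 2.17 of all members in that table. They included exons 5, 6, 9, 10 and 11, and the highest was at exon 5 (chr1:90816233-90816488, score 6.97), where an overlapping peak was m6A-down in LPS vs Veh (score 3.14). Exon 3 of Col6a3 held the highest m6A-down score among the members in Mel+LPS vs LPS, 6.29 (chr1:90827943-90828085). Col14a1, another fibril-associated collagen, had 9 peaks, all m6A-up in Mel+LPS vs LPS, with scores of 1.06 to 5.73. Col7a1, the anchoring fibril collagen, went the other way at exon 96, with 1.59 as m6A-up in LPS vs Veh and 1.05 as m6A-down in Mel+LPS vs LPS. These scores are close to the lowest in the tables.

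Laminins are the heterotrimers that found the basement membrane, and 5 of the 9 chains had peaks, 35 in all. Lama2 had 12 of them. It had 4 m6A-up peaks in LPS vs Veh, all in introns, with scores of 8.77 in intron 53 (chr10:27019883-27020045), 8.54 in intron 27 (chr10:27187584-27187718), 5.84 in intron 1 and 1.42 in intron 39. The peak in intron 1 overlapped the gene's 1 m6A-down peak in Mel+LPS vs LPS, with a score of 5.72. Its 7 m6A-up peaks in Mel+LPS vs LPS were elsewhere, 6 of them at exons, with a maximum of 7.75 at exon 42 (chr10:27056343-27056579). In LPS vs Veh the peaks in introns 27 and 39 were centred 95 and 97 bases past an exon. Those in introns 53 and 1 were centred 1437 and 42900 bases from one. Lama2 lies on chromosome 10, where m6A-down peaks of LPS vs Veh were not analysed, so its exon and intron peaks cannot be compared in direction there. Lamc1, the gamma chain common to most laminins, had 3 m6A-down peaks in LPS vs Veh with scores of 1.14 to 1.53, each of which overlapped one of its 8 m6A-up peaks in Mel+LPS vs LPS. At exon 19 the scores were 1.53 and 4.20. Lama4 had 6 m6A-up peaks in Mel+LPS vs LPS with a maximum of 6.17, Lamb1 had 4 with a maximum of 2.51, and Lama3 had 1 with a score of 7.44.

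Fibronectin and the fibrillins form the fibres on which collagen and elastin assemble. Fn1 had 5 m6A-down peaks in LPS vs Veh (scores 1.27 to 1.97) and 9 m6A-up peaks in Mel+LPS vs LPS (1.58 to 3.26), with no peak in the opposite tables. Overlapping peaks lay at exons 5 and 35 and in intron 25, and the highest scores were those of intron 25, 1.97 for the m6A-down peak and 2.79 for the m6A-up peak. The scores of Fn1 were thus low in both tables. Fbn1 held the highest score of all 255 peaks, 17.1, as m6A-up in Mel+LPS vs LPS in intron 15 (chr2:125381815-125381934). This peak had no exonic base, and its centre was 111 bases past the exon. Fbn1 also had an m6A-down peak in intron 2 (score 6.94) and an m6A-up peak at the promoter (score 1.86) in LPS vs Veh. Ltbp1, which tethers latent TGF-beta to the matrix, had 1 peak, m6A-down in Mel+LPS vs LPS with a score of 1.57.

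The basement membrane linkers gave few peaks. Hspg2 encodes perlecan, a heparan sulphate proteoglycan, and had 1 peak in each table. Its peaks in intron 1 were m6A-up in LPS vs Veh (score 4.71) and m6A-down in Mel+LPS vs LPS (score 4.73) over exactly the same bases, chr4:137491624-137491823. A different place in intron 1 was m6A-down in LPS vs Veh (chr4:137483556-137483755, score 4.18), and exon 69 was m6A-up in Mel+LPS vs LPS with a score of 2.63. Nid1 encodes nidogen, which bridges laminin and type IV collagen, and had 2 m6A-up peaks (maximum 2.60) and 1 m6A-down peak in the 3′UTR (score 1.65) in Mel+LPS vs LPS.

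Among the matricellular genes and proteoglycans, Postn had 14 of the 33 peaks. It encodes periostin, which promotes collagen crosslinking. Its 6 m6A-down peaks in LPS vs Veh had scores of 1.29 to 4.67, the highest annotated to the 3′UTR (chr3:54390888-54391089). That peak had no exonic base on the GENCODE transcript used, and its centre was 536 bases past the nearest exon. The 8 m6A-up peaks of Postn in Mel+LPS vs LPS had scores of 1.14 to 5.07. At exon 12 the m6A-down peak scored 1.96 and the overlapping m6A-up peak 3.22. Tnc, the gene of tenascin C, which is made at sites of tissue remodelling, had 3 m6A-down peaks in LPS vs Veh and 1 m6A-up peak in Mel+LPS vs LPS. The latter was 1092 bases wide and had a score of 4.73, and it overlapped m6A-down peaks with scores of 2.43 and 1.33. By the rule Postn and Tnc had no peak in the opposite tables, but Tnc had an m6A-down peak of Mel+LPS vs LPS on a coding exon (chr4:64007659-64007768, score 1.21) that the table gives to another gene.

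Vcan encodes versican, a large proteoglycan of provisional matrix. Its 5 m6A-up peaks in Mel+LPS vs LPS all lay in 1 long exon, with scores of 2.86, 6.51, 4.52, 3.84 and 4.65. Thbs1 encodes thrombospondin, which is secreted by platelets and stromal cells. It was m6A-up in LPS vs Veh at exon 3 (score 2.34) and in the 3′UTR (score 1.39), and the latter overlapped a peak that was m6A-down in Mel+LPS vs LPS (score 2.07). Tnxb had 3 m6A-up peaks with a maximum of 2.59 and 1 m6A-down peak (score 1.04) in Mel+LPS vs LPS. Dcn, the gene of the fibre-binding proteoglycan decorin, had 1 peak in the 5′UTR, m6A-up in Mel+LPS vs LPS (score 2.35).

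The matrix proteases, inhibitors and crosslinking genes had the fewest peaks for their number, 10 in 6 of 8 genes, and all scores were below 4. Mmp2, a gelatinase, was m6A-down in LPS vs Veh in intron 10 (score 1.93) and m6A-up in Mel+LPS vs LPS at the overlapping exon 10 (score 3.90). Adamts5, which cleaves aggrecan and versican, was m6A-up in LPS vs Veh (score 1.84) and m6A-down in Mel+LPS vs LPS (score 2.19) in its last exon. The inhibitor genes Timp2 and Timp3 had 1 peak each, m6A-up in LPS vs Veh (score 1.28) and m6A-down in Mel+LPS vs LPS (score 1.999). Mmp14, the membrane-bound protease that activates Mmp2, had 1 peak in the 5′UTR, m6A-up in LPS vs Veh (score 1.80), and Adamts1 had 2 in the 3′UTR, m6A-up in Mel+LPS vs LPS with a maximum of 1.36.

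By the rule, the peaks of the matrix genes were mostly in the body of the transcripts. By the deposited annotation 178 of the 255 were in an exon, 57 in an intron, 12 in the 3′UTR, 7 in the 5′UTR and 1 at a promoter. In LPS vs Veh 4 of 62 peaks were in the 3′UTR (6.45%, 2.54 to 15.4), beside 13.7% of all peaks in a gene. For Mel+LPS vs LPS it was 8 of 181 (4.42%, 2.26 to 8.48), beside 12.5%. On the GENCODE transcript with the longest coding sequence, 196 of the 255 peaks touched an exon. Of these, 181 were centred in the coding sequence (92.3%, 87.8 to 95.3), 10 in the 3′UTR and 5 in the 5′UTR. The coding sequence made up 77.6% of the bases of the 54 transcripts and the 3′UTR 17.7%. The 196 leave out 34 exon-centred peaks given to other genes or outside the rule, described below. Of those 34, 25 were in the 3′UTR class, so the coding sequence share is lower once they are counted. Within 200 bases of the stop codon there were 3.

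**Figure D4:**
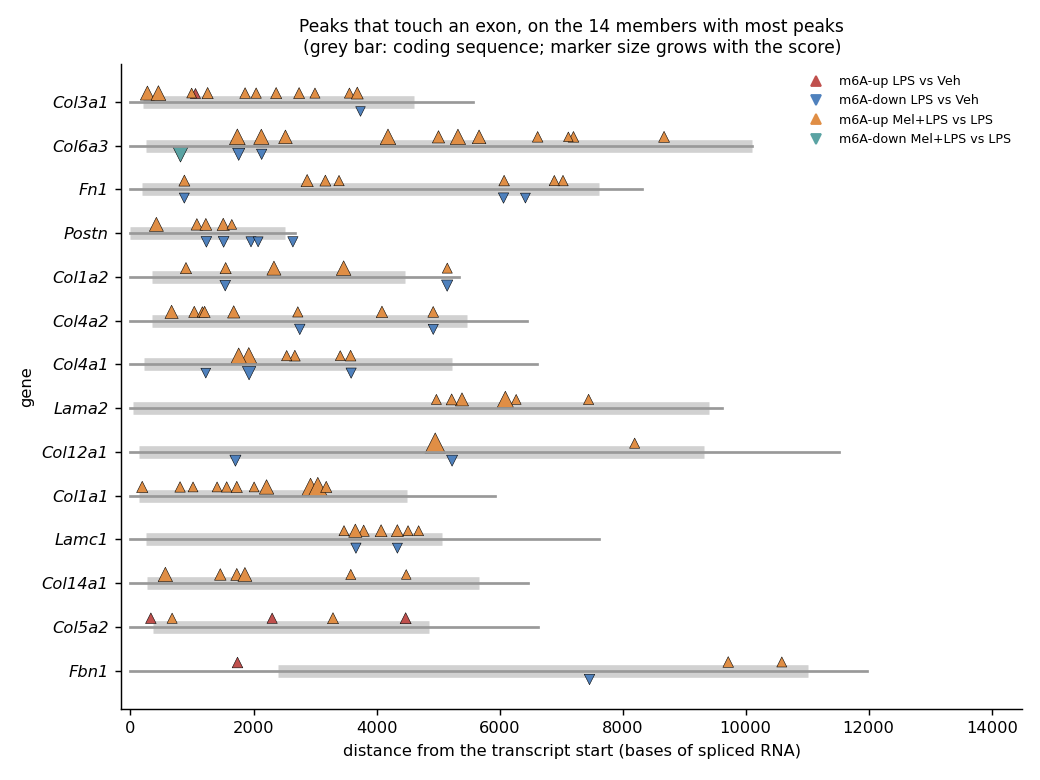
Position along the spliced transcript (horizontal axis, bases from the transcript start) of the peaks that touch an exon, for the 14 matrix genes with most peaks. Upward triangles mark m6A-up and downward triangles m6A-down, colour marks the table, size grows with the score, and the grey bar is the coding sequence. Nearly all markers lie over the grey bars, and in Col3a1 and Col1a1 they run along the coding sequence from its start.

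The shares in the 3′UTR and in the coding sequence rest in part on how peaks were given to genes. The deposited annotation names no gene for a 3′UTR peak other than the one whose start is nearest, which for a long gene can be a neighbour. A search of the exons found 34 further peaks centred on an exon of 19 matrix genes but given to another gene or outside the rule, and 25 of them were in the 3′UTR class. They included 5 of the 11 genes with no peak by the rule: Eln, Fbn2, Lamb2, Lamb3 and Loxl2. With these added the 3′UTR shares became 17.8% in LPS vs Veh and 10.9% in Mel+LPS vs LPS. No share over all genes with the same addition is given here. Of all peaks, including those outside genes, 21.5% and 20.5% were in the 3′UTR class. Eln, the elastin gene, which had no peak by the rule, had 2 of the 34 peaks as m6A-down in its 3′UTR in LPS vs Veh. Their scores were 8.78 (chr5:134703032-134703261) and 6.81 (chr5:134703511-134703679), and both were given to Limk1. The latter overlapped an m6A-up peak of Mel+LPS vs LPS with a score of 3.52. These scores would place Eln among the 5 strongest m6A-down members in LPS vs Veh. Fbln1, which encodes the elastic fibre protein fibulin, had by the rule 3 m6A-up peaks in Mel+LPS vs LPS, with a maximum of 2.03. It also had a 3′UTR peak given to another gene, with 2.43 as m6A-up in LPS vs Veh and 5.30 as m6A-down in Mel+LPS vs LPS. Col8a1 had 1 such peak with 6.71 as m6A-up in Mel+LPS vs LPS, which is annotated as 3′UTR but lies in the coding sequence of the GENCODE transcript. Vcan had 2 m6A-up peaks of Mel+LPS vs LPS on its exons that were annotated as promoter peaks, with scores of 7.09 and 5.49.

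Most peak centres lay just past an exon. Only 56 of the 255 centres were on an exon of the GENCODE transcript, and 186 were on the 3′ side of the nearest exon, with 13 on its 5′ side. The median distance of the centres off the exons was 67 bases. After each centre was moved 100 bases in the 5′ direction along its gene, 220 of 255 lay on an exon. The same displacement was found over all genes, but it took fewer of their peaks off the exon: of the peaks annotated to an exon, 22.5% were centred on it in the matrix genes (40 of 178) and 49.2% in all genes (6511 of 13240), and after the move 97.8% and 95.2% were. The median exon length was 135 bases in the matrix genes and 61.5 bases in the collagen genes among them, against 154 bases in other protein-coding genes. Which step of the processing sets the displacement was not tested.

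**Figure D5:**
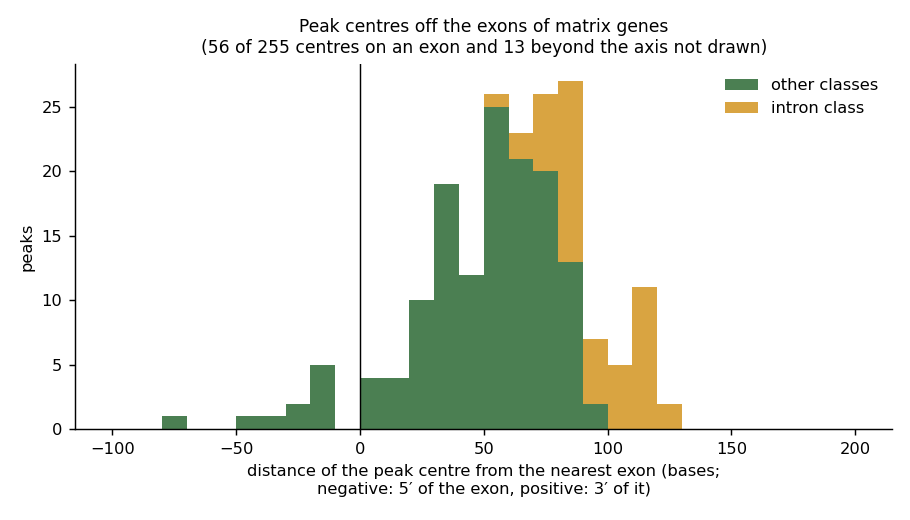
Number of peaks (vertical axis) by the distance of the peak centre from the nearest exon of its matrix gene (horizontal axis, bases, negative on the 5′ side and positive on the 3′ side), for the 186 centres off an exon within the axis, with the intron class in a second colour. Nearly all lie on the 3′ side within 130 bases, and the intron class makes up the farther end of the same distribution.

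The intron peaks of the matrix genes fell into separate ranges of distance. Of the 57, 46 were centred within 122 bases of an exon, and 11 were more than 200 bases away; over all genes 61.8% of the intron peaks were more than 200 bases away. All 30 intron peaks in the m6A-up table of Mel+LPS vs LPS were near an exon (0% far, upper limit 11.4%), where 29.6% of the intron peaks of all genes were far. In the m6A-down table of Mel+LPS vs LPS 4 of 5 were far (80.0%), beside 79.6% over all genes, and in the m6A-up table of LPS vs Veh 5 of 11 were (45.5%), beside 70.0%. The 11 far peaks belonged to Col12a1, Col4a2, Hspg2, Lama2 and Fbn1. In Col12a1 intron 25, Col4a2 intron 4, Hspg2 intron 1 and Lama2 intron 1, the far peak was m6A-up in LPS vs Veh and m6A-down in Mel+LPS vs LPS at the same place, with nearly equal scores in both tables. The scores of Col12a1 intron 25 and Col4a2 intron 4 were also identical to each other in each table. The score 3.78 was shared by 1450 peaks of the m6A-up table of LPS vs Veh (12.1%) and 3.85 by 1370 peaks of the m6A-down table of Mel+LPS vs LPS (14.9%), so these values were not particular to the collagens.

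The exonic parts of the peaks held slightly more DRACH motifs than the rest of the same transcripts. On the sense strand there were 25.9 motifs per 1000 bases in the exonic parts of the 196 peaks, and 22.2 per 1000 bases elsewhere in the 43 transcripts, a ratio of 1.17. At least 1 motif was present in 141 of the 196 exonic parts (71.9%), and in 62.0% of all stretches of the same length on the same transcripts. With the peaks moved 100 bases in the 5′ direction, 242 touched an exon and the ratio was 1.13. At least 1 motif was then present in 90.1% of the exonic parts and in 89.3% of the stretches, so this contrast was not kept. For GGAC, the core that the methyltransferase prefers, the densities were 7.30 and 6.60 per 1000 bases, a ratio of 1.11. After the same move the GGAC ratio was 1.21. By table, the DRACH ratio was 1.18 in the m6A-up table of Mel+LPS vs LPS (136 peaks), 1.12 in the m6A-up and 0.984 in the m6A-down table of LPS vs Veh (25 and 26 peaks) and 1.03 in the m6A-down table of Mel+LPS vs LPS (9 peaks). After the move these ratios were, in the same order, 1.11, 1.05, 1.11 and 1.31 (166, 31, 35 and 10 peaks). The order of the tables was thus not kept. The GGAC ratio depended on the transcript, and rose to 1.27 with the APPRIS principal transcripts, which for Vcan leave out the long exon.

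The motif has a reading frame in collagens. Their triple helix repeats glycine every 3 residues, often followed by proline, and glycine codons begin with GG. The coding sequences of the 20 collagen genes held 10.1 GGAC per 1000 bases, against 5.96 in the other 34 genes. In collagens 70.5% of the 1062 GGAC began at the first base of a codon, against 28.3% of the 1054 in the others. For GGACC the values were 5.20 per 1000 bases with 82.6% in that frame in collagens, and 1.72 per 1000 bases with 25.0% in the others. The GGACC printed for Col1a1 and Col4a1 are both in this frame, and those of Hspg2 and Mmp2 are not. For GGACT, the most favoured form, collagens and the others had 1.82 and 1.34 per 1000 bases.

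Genes that work with the matrix were counted by the same rule and are set beside the share of protein-coding genes given above for each table. Of 25 genes for collagen processing and folding, 14 had m6A-up peaks in Mel+LPS vs LPS (56%, beside 25.6% of protein-coding genes and 55.6% of genes that had a peak anywhere) and 1 had an m6A-down peak (4%, beside 15.3%). Of the same genes 2 had m6A-up peaks in LPS vs Veh (8%, beside 20.1%), and 7 of the 15 on chromosomes 1 to 9 had m6A-down peaks (46.7%, beside 22.0%). The highest m6A-up scores in Mel+LPS vs LPS were 4.79 for Serpinh1, the collagen chaperone of the endoplasmic reticulum, and 4.74 for P3h1, a prolyl 3-hydroxylase of collagen.

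Of 21 other matrix proteases and inhibitors, 8 had m6A-up peaks in Mel+LPS vs LPS (38.1%, beside 25.6%), with a score of 11.3 for the secreted protease gene Adamts9, and none had an m6A-down peak (beside 15.3%). None was m6A-up in LPS vs Veh (beside 20.1%), where 6 of 17 were m6A-down (35.3%, beside 22.0%). Of 14 TGF-beta ligands, receptors and latency genes, 9 had m6A-up peaks (64.3%) and 3 had m6A-down peaks (21.4%) in Mel+LPS vs LPS, and 2 had m6A-up peaks (14.3%) and 3 of 8 had m6A-down peaks (37.5%) in LPS vs Veh. Of the 24 matrix receptors, 9 had m6A-up peaks (37.5%) and 6 had m6A-down peaks (25.0%) in Mel+LPS vs LPS, up to 8.88 for the laminin-binding integrin gene Itga6 in the latter. In LPS vs Veh 6 of the 24 had m6A-up peaks (25.0%) and 3 of 12 had m6A-down peaks (25.0%). The lists are small and none of these shares was tested. The lists keep genes with no peak, which the set of genes that had a peak anywhere leaves out.

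Leukocyte markers were counted as the other cells that the uterus could hold. Of 14 markers, 6 had m6A-up peaks in LPS vs Veh (42.9%, beside 20.1% of protein-coding genes and 46.7% of genes that had a peak anywhere; 16 peaks), with maxima of 8.29 for the leukocyte integrin gene Itgb2 and 5.39 for Lyz2, the lysozyme of macrophages and neutrophils, and 0 of 7 had an m6A-down peak (beside 22.0%). In Mel+LPS vs LPS 4 had m6A-up peaks (28.6%, beside 25.6%; 5 peaks) and 2 had m6A-down peaks (14.3%, beside 15.3%; 4 peaks). The markers were counted whether or not they had a peak, while the 46.7% is of genes that had one. The part of a changed number of these cells in the values of the matrix genes was not tested.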

How the data were processed

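Reads of the 18 libraries were processed by the authors with Fastp, STAR 2.5.2a, exomePeak2 and MACS2, and annotated with ChIPseeker 1.22.1 on RefSeq transcripts of mm10 (GRCm38). The deposited tables give position, annotation and 1 score per differential peak. Per the names of the peaks the score is the log10 likelihood ratio of the MACS2 differential step; how replicates and inputs were combined is not given in the sources used here. Depth is unknown. The m6A-down table of LPS vs Veh is cut off within chromosome 10 and was used on chromosomes 1 to 9.

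Peaks were assigned, counted and placed on GENCODE M21 transcripts with Python 3.11.15 (pandas 2.3.3, numpy 2.4.6), using for each gene the transcript with the longest coding sequence. All 37 member transcripts compared lay within their RefSeq GRCm38.p6 gene limits. Peaks that share at least 1 base were taken as the same site. The text names the 5 highest peaks of each table, members with overlapping peaks in both comparisons or with both directions in 1 comparison, the member with most peaks in each role group, and others by count. The members and gene lists were chosen with earlier results of these data known, and the search of exons for peaks given to other genes, the distances from exons and the split by distance were added after seeing the data. The scripts were tested on simulated peaks. No test across peaks was run, since peaks are not replicates. Alternatives covered the assignment rule, the minimum score, the overlap and the motif window.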

Additional observations from a re-analysis of the deposited data

How the results depend on the processing

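No paired analysis was possible because each peak has 1 score and no value per replicate; leaving out a replicate was not possible for the same reason. Of 67 alternative values, 20 moved. The number of genes with a peak fell with the minimum score by construction, since fewer peaks are left: at scores of at least 3 and at least 6 it was 9 and 3 (m6A-up LPS vs Veh), 7 and 2 (m6A-down LPS vs Veh), 22 and 12 (m6A-up Mel+LPS vs LPS) and 5 and 2 (m6A-down Mel+LPS vs LPS). With 1 peak per gene, the highest, the median score rose to 2.79 in the m6A-down table of LPS vs Veh and to 3.79 in the m6A-up table of Mel+LPS vs LPS. The 3′UTR share was the least settled value. It was 0% in both comparisons when only annotations that name the gene were used, since 3′UTR annotations name none; in Mel+LPS vs LPS it was 0% at scores of at least 3 and 17.9% of the 39 centres on a reference exon; and it was 17.8% in LPS vs Veh and 10.9% in Mel+LPS vs LPS with the peaks given to other genes, an alternative chosen after seeing the data. With scores of at least 3 in both tables, overlapping peak pairs numbered 5 from m6A-up to m6A-down, 5 from m6A-down to m6A-up and 0 in the same direction, against 8, 25 and 2. The comparisons share the LPS libraries with opposite sign, so overlaps in opposite directions can arise without an effect of treatment, and these numbers are not read as a result. The motif density was 7.30 per 1000 bases for GGAC in place of DRACH, a rarer motif. The other assignment rules, overlap rules and windows left the remaining values within 1.5 times or within their intervals. Those intervals were wide for the median scores: the median was 3.49 with every nearest-gene peak in the m6A-up table of LPS vs Veh, and 3.85 with every nearest-gene peak or with annotations that name the gene in the m6A-down table of Mel+LPS vs LPS, over 1.5 times the reported 1.90 and 2.13. The tables hold only peaks with a score above 1, so a gene with no peak is not shown to be unmethylated or unchanged.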

Other observations

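Runs of peaks on neighbouring exons were seen in several members. In Lamc1 the 10 peaks at or next to exons 18 to 26 covered the 3′ part of a 28-exon gene, and in Col6a3 the m6A-up peaks of Mel+LPS vs LPS at exons 5 to 11 had scores of 3.32 to 6.97, while those at exons 19 to 38 had scores of 1.05 to 2.08. Exon 3 of Col6a3, which lies 5′ of this run, was the exon with an m6A-down peak in Mel+LPS vs LPS. In LPS vs Veh the m6A-down peaks of Col6a3 were at exon 5, within the run (scores 1.58 and 3.14).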
